A study of Rattus norvegicus with 12 samples.

Results

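Enzymes that make, use or degrade ceramide were followed at the transcript level in rat cardiac muscle. They were taken by symbol from a table of 17602 genes: Sptlc1, Sptlc2, Cers2, Cers4, Cers5, Cers6, Degs1, Sgms1, Smpd1 and Asah1, that is 10 genes of 17602. Each symbol was present, and where several rows carried a symbol the one with the highest mean was used. The samples were bulk RNA from the cardiac muscle of ZSF1 rats, a strain used as a model of metabolic syndrome and of heart failure with preserved ejection fraction, in 3 groups of 4: lean rats as controls, obese rats, and obese rats given nicotinamide (NAM), a precursor of NAD+. NAM was added to the drinking water at 24 mM from week 8 to week 20 of age. The labels call both obese groups diet-induced obese. Obese ZSF1 rats are known to carry defective leptin receptor alleles, but the genotype and sex of these animals, and the age of the untreated ones at sampling, are not stated in the labels or the study's text. The sources do not say whether each sample was a separate animal, so p-values measure the spread between these samples. Heart tissue is a mixture of cell types, and in such bulk RNA fewer cells of a type and less RNA per cell cannot be told apart.

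Ceramide is the central intermediate of sphingolipid metabolism. Serine palmitoyltransferase, whose core subunits are Sptlc1 and Sptlc2, joins serine to palmitoyl-CoA; ceramide synthases then attach a fatty acid to the sphingoid base, and dihydroceramide desaturase, Degs1, introduces the double bond that makes ceramide. Ceramide is turned into sphingomyelin by Sgms1, is released from sphingomyelin by the acid sphingomyelinase Smpd1, and is cleaved to sphingosine and a fatty acid by the acid ceramidase Asah1. The ceramide synthases differ in the acyl chains they prefer: Cers2 uses very long chains, Cers4 long to very long chains, and Cers5 and Cers6 mainly palmitoyl chains. Ceramides are known to accumulate in hearts overloaded with lipid and have been tied to insulin resistance and mitochondrial dysfunction there.

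Cers4 was the member whose level differed between groups on both scales described below, and Cers2 is the most abundant ceramide synthase of the set, so the promoters of these 2 paralogues are shown for comparison. RefSeq promoters, from 250 bases before to 50 bases after each gene's start, were found for 9 of the 10 members in the GRCr8 build. The capitals mark each CCAAT, the letters of a CCAAT box, and each GGGCGG, the letters of a GC box, on either strand. The Cers4 promoter lies at chr12:7649360-7649659 on the + strand and the Cers2 promoter at chr2:185579261-185579560 on the + strand.
Cers4: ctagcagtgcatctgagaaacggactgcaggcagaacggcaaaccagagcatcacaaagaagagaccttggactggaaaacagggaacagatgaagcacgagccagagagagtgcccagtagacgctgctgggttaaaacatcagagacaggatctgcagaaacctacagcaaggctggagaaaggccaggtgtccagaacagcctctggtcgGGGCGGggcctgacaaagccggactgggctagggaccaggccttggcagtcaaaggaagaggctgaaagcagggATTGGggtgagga
Cers2: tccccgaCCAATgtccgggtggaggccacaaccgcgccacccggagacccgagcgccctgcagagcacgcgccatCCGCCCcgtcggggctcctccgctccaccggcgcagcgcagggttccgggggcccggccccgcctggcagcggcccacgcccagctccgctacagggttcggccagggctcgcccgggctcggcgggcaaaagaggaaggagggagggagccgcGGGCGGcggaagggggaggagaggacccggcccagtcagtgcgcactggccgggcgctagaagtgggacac
Both windows held 1 CCAAT. The Cers4 window held 1 GGGCGG and the Cers2 window 2, and these matches did not overlap one another. Of 33469 rat promoters of the same length, 37.5% held CCAAT and 33.1% held GGGCGG, and among the 9 members with a promoter 4 held the former and 7 the latter. The GC content was 56% for Cers4 and 76% for Cers2, against a median of 51.7% over all promoters. CACGTG, the letters of an E-box, was present in 6.42% of promoters and in 1 member, Cers6. These letter matches describe the windows only.

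Levels are given as TPM, a length-corrected share of a library's transcripts, in which each sample's values sum to nearly the same total. A TPM is a share of the library, and mitochondrially encoded transcripts took 69.1% ± 1.97 of it in the lean, 75.1% ± 0.376 in the obese and 71.3% ± 1.69 in NAM-treated samples (SD, n = 4), so the share left to other genes was smallest in the obese group. Each comparison was therefore made as deposited and after rescaling by the median of gene-wise ratios. The rescaling divided the samples by factors of 1.03 to 1.09 in the lean, 0.841 to 0.928 in the obese and 0.994 to 1.17 in NAM-treated rats. On the deposited scale the median of all tested genes was 0.20 lower in obese than in lean samples and 0.25 higher in NAM-treated than in obese samples (log2). After rescaling it was within 0.01 of 0 in both, which the rescaling brings about by its construction. Read depth is unknown, because TPM keeps none. The cardiomyocyte markers were abundant in every sample, with Myl2, the ventricular myosin light chain, the highest; all 5 lymphocyte markers averaged under 1 TPM in each group. Atrial markers, led by Sln, summed to between 11.8 and 656 TPM over the 12 samples, with ranges of 11.8 to 52.2 in the lean, 20.1 to 348 in the obese and 15.1 to 656 in NAM-treated samples.

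Ordered by mean TPM over the 12 samples, Asah1 was highest at 27.1, followed by Smpd1 and Sgms1, both at 16.4, Degs1 at 15.8, Cers2 at 8.92, Cers5 at 5.77, Sptlc2 at 5.57, Sptlc1 at 2.97, Cers4 at 2.71 and Cers6 at 0.361. TPM accounts for transcript length, so these levels can be set against each other. Among these members, Asah1, Smpd1, Sgms1 and Degs1 thus stood above the ceramide synthases and the palmitoyltransferase subunits. Asah1 lay above Smpd1 in 12 of 12 samples, while the ranges of Smpd1, Sgms1 and Degs1 overlapped. Degs1 and Cers2 did not overlap. Cers2 exceeded Cers5 in 12 of 12 samples although their ranges touched, Cers5 and Sptlc2 overlapped, and so did Sptlc1 and Cers4. Of the members, 9 reached 1 TPM in at least 4 samples and were tested; Cers6, which averaged under that level in each group, was not.

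**Figure D1:**
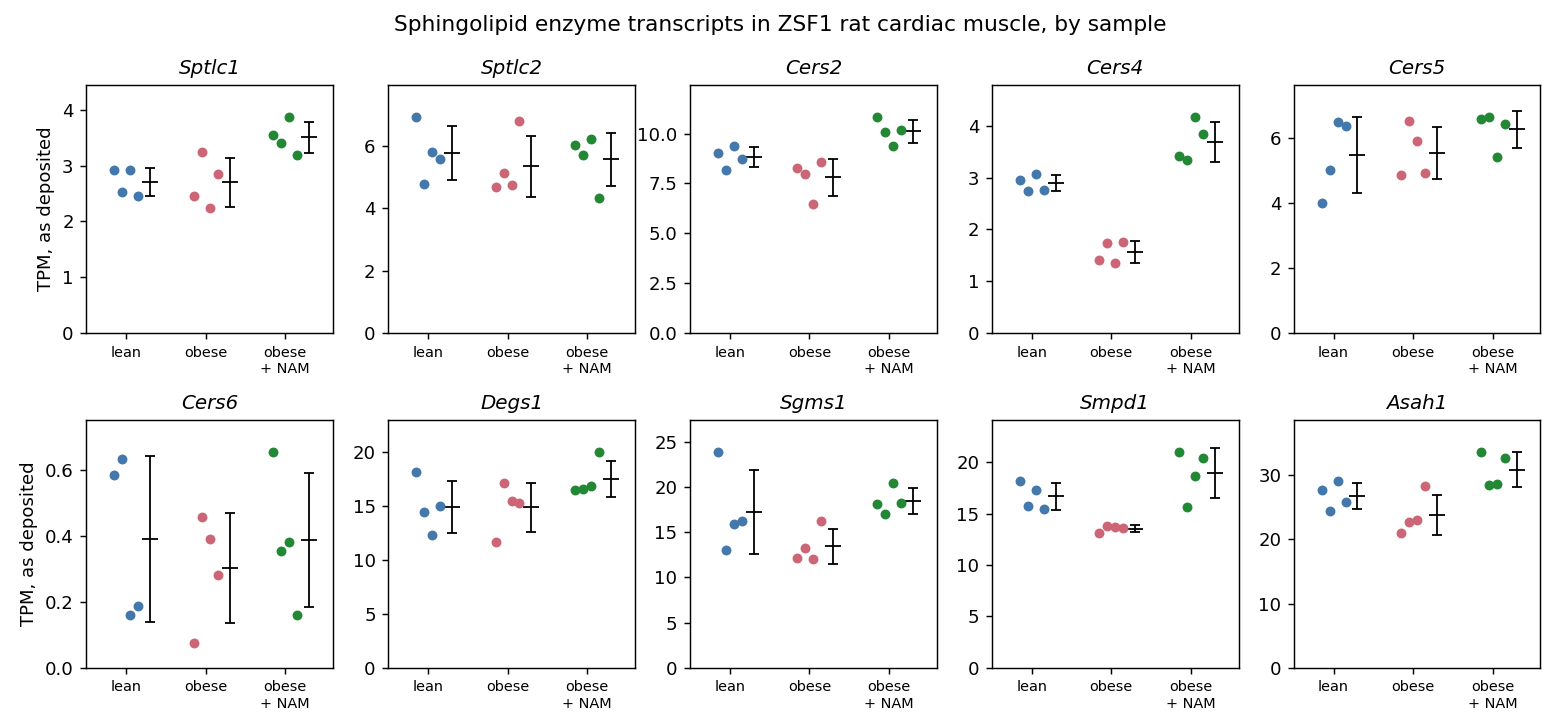
TPM as deposited of the 10 enzymes; each point is 1 sample, with the group mean and SD (n = 4) as a bar beside the points, and each panel has its own axis from 0. The 4 obese samples of Cers4 lie between 1.35 and 1.76 TPM, below every lean and NAM-treated sample, while the groups of Sptlc2, Cers5, Cers6 and Degs1 overlap throughout.

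Neither subunit of the first enzyme of the pathway passed the test in any comparison. Sptlc1, the subunit that partners the catalytic subunit Sptlc2, read 2.92, 2.53, 2.92 and 2.45 TPM in the lean, 2.45, 3.25, 2.25 and 2.85 in the obese and 3.55, 3.41, 3.87 and 3.20 in NAM-treated samples. The lean and obese samples overlapped throughout, and all 4 NAM-treated samples lay above the lean ones. As deposited, the Sptlc1 difference between NAM-treated and lean samples was 0.28 (log2, SE 0.11) with an adjusted p of 0.203 by limma. That between NAM-treated and obese samples was 0.29 with an adjusted p of 0.0554. It was called in 1 of 12 fits that left out 1 library, without obese replicate 2 (0.0256). After rescaling these differences were 0.23 and 0.05, with adjusted p-values of 0.249 and 0.852. Sptlc2 averaged 5.78 ± 0.882, 5.35 ± 0.988 and 5.58 ± 0.849 TPM in the lean, obese and NAM-treated samples (SD, n = 4). The ratio of Sptlc2 to Sptlc1 was 2.14 ± 0.227 in the lean, 2.001 ± 0.339 in the obese and 1.59 ± 0.157 with NAM. The NAM-treated ratios, 1.36 to 1.70, lay below every lean one, 1.89 to 2.37. The exact two-sided permutation test of that difference gave p = 0.0286, the smallest that 70 assignments of 4 against 4 allow, and 0.171 after adjustment over the 18 ratio tests described here.

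Among the ceramide synthases Cers4 stood apart. Its lean samples read 2.95, 2.75, 3.07 and 2.77 TPM, its obese samples 1.41, 1.74, 1.35 and 1.76, and its NAM-treated samples 3.41, 3.33, 4.16 and 3.83. The obese samples were the lowest 4 of the 12 and the NAM-treated ones the highest 4, with no overlap between any 2 groups. As deposited, the mean in obese rats was 0.542 times that in lean rats, and the mean in NAM-treated rats was 2.36 times that in obese rats. On the rescaled values these ratios were 0.648 and 1.88. After rescaling, the obese range was 1.54 to 2.01, the lean range 2.65 to 2.95 and the NAM-treated range 2.91 to 3.71, so the lean and NAM-treated groups then overlapped and the obese group lay below both.

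Cers2, the ceramide synthase for very long acyl chains, read 9.04, 8.18, 9.37 and 8.73 TPM in the lean, 8.28, 7.95, 6.48 and 8.58 in the obese and 10.8, 10.1, 9.39 and 10.2 in NAM-treated samples. The NAM-treated samples were the highest 4 and the other groups overlapped. Cers5 averaged 5.48 ± 1.18, 5.55 ± 0.804 and 6.27 ± 0.574 TPM in the same order, with overlap throughout. Cers6 ranged from 0.0756 to 0.655 TPM over the 12 samples and its groups overlapped throughout, with means of 0.391 ± 0.252, 0.302 ± 0.167 and 0.388 ± 0.203.

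Expressed as shares of the summed TPM of these 4 synthases, which do not depend on the scaling of the library, Cers4 made up 16.5% ± 1.03 in the lean, 10.2% ± 0.813 in the obese and 18.1% ± 2.57 in NAM-treated samples (SD, n = 4). The obese shares ran from 9.57% to 11.3%, below the lean range of 15.3% to 17.8% and the NAM-treated range of 15.9% to 21.5%. Cers2 held 50.3% ± 2.81, 51.3% ± 5.34 and 49.4% ± 0.763, and Cers5 held 30.9% ± 4.96, 36.5% ± 4.79 and 30.6% ± 1.91. The lower mean share of Cers4 in obese rats thus came mostly with a higher mean share of Cers5, whose ranges overlapped between groups. Shares of 1 sum depend on each other, and Cers5 itself averaged 5.48 TPM in lean and 5.55 in obese samples as deposited. The summed TPM of the 4 genes, which does depend on the scaling, averaged 17.6 ± 1.22 in the lean, 15.2 ± 1.12 in the obese and 20.5 ± 0.871 in NAM-treated samples as deposited. After rescaling, Cers2 averaged 8.39, 8.90 and 9.20 in the lean, obese and NAM-treated samples. Rescaled Cers5 averaged 5.22, 6.30 and 5.71 and Cers4 2.74, 1.78 and 3.35, so of these 3 genes Cers4 alone was lowest in the obese group.

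**Figure D2:**
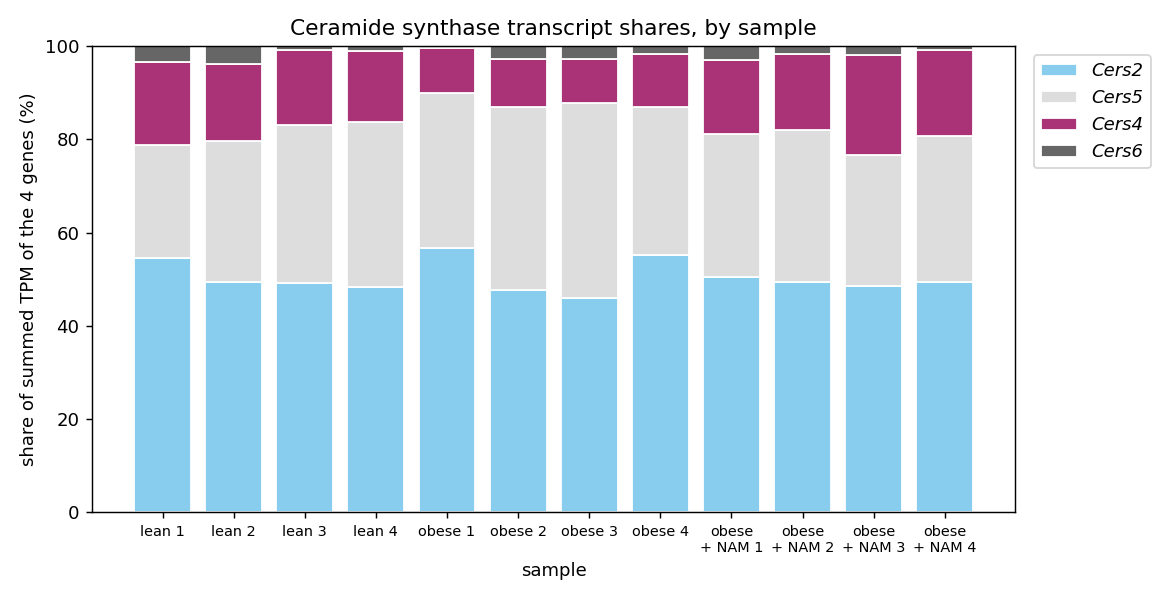
Share of each of 4 ceramide synthases in their summed TPM (%), as stacked bars for each of the 12 samples. The Cers4 segment is 9.57% to 11.3% in the 4 obese samples and at least 15.3% in the other 8 samples.

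The ratio of Cers4 to Cers2 gave the same order. It was 0.327, 0.336, 0.328 and 0.317 in lean samples, 0.171, 0.218, 0.209 and 0.205 in obese samples, and 0.316, 0.331, 0.443 and 0.376 in NAM-treated samples. The obese ratios did not overlap with either other group, and the lean and NAM-treated ratios did overlap. The mean log2 ratio was 0.71 lower in obese than in lean samples (exact two-sided permutation p = 0.0286, adjusted p = 0.171), and 0.86 higher in NAM-treated than in obese samples, with the same p-values. With 1 TPM added to each gene, as in the fits, these differences were -0.44 and 0.53. With 18 tests and 4 samples a group no ratio could pass the adjustment unless most of the tests reached the smallest p together. Not passing it therefore says little about a single ratio. The ratios of Cers5 and Cers6 to Cers2 had exact p-values of at least 0.4 in each comparison.

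Degs1, the desaturase, read 18.1, 14.4, 12.3 and 14.96 TPM in the lean, 11.7, 17.1, 15.4 and 15.3 in the obese and 16.5, 16.6, 16.9 and 20.0 in NAM-treated samples. The groups overlapped. As deposited, its change was -0.01 between obese and lean samples and 0.23 between NAM-treated and obese samples (log2), with adjusted p-values of 0.974 and 0.193 by limma. After rescaling these changes were 0.24 and -0.08, with adjusted p-values of 0.326 and 0.796.

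The enzymes that move ceramide into and out of sphingomyelin were lowest on average in the obese samples as deposited. Sgms1, sphingomyelin synthase, read 23.9, 13.0, 16.0 and 16.3 TPM in the lean, 12.2, 13.2, 12.0 and 16.3 in the obese and 18.2, 17.0, 20.5 and 18.2 in NAM-treated samples. Its lean group overlapped with both others, and its NAM-treated samples lay above all obese ones. Smpd1, acid sphingomyelinase, read 18.2, 15.8, 17.3 and 15.4 TPM in the lean, 13.1, 13.8, 13.7 and 13.6 in the obese and 21.0, 15.7, 18.7 and 20.4 in NAM-treated samples. The obese samples lay close together and below every other sample. After rescaling, the obese range of 14.9 to 15.7 lay inside the range of 14.8 to 16.6 found in lean rats. The ratio of Sgms1 to Smpd1 was 1.03 ± 0.213, 0.991 ± 0.142 and 0.984 ± 0.123 in the lean, obese and NAM-treated samples, with exact p-values of at least 0.83.

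Asah1, acid ceramidase, read 27.6, 24.4, 29.0 and 25.8 TPM in the lean, 21.0, 22.7, 23.0 and 28.3 in the obese and 33.6, 28.4, 28.7 and 32.7 in NAM-treated samples. In this group 3 of the 4 obese samples lay below all lean ones, and the lowest NAM-treated sample, at 28.4, lay just above the highest obese one, at 28.3. The ratio of Asah1 to Smpd1, the enzymes that consume and release ceramide in the lysosome, was 1.60 ± 0.0810, 1.75 ± 0.220 and 1.64 ± 0.122, with exact p-values of at least 0.229.

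In obese against lean rats, 1 of the 9 tested members passed the threshold of an adjusted p under 0.05 on the deposited scale. Cers4 was lower by a log2 change of -0.60 (SE 0.10, adjusted p = 0.00321 by limma, 4 of 4 obese samples below all lean ones). On that scale 16.5% of the 10526 tested genes were called lower, so 1 of 9 is near the background; 8 of the 9 members had a negative change, with a median of -0.16 against -0.20 for all tested genes. Cers4 and Smpd1 were the 2 members whose groups did not overlap with obese lower, a pattern held by 23.2% of tested genes. Smpd1 changed by -0.28 with an adjusted p of 0.0622, and by -0.03 after rescaling (adjusted p = 0.855); its deposited adjusted p was 0.0264 without NAM-treated replicate 2.

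After rescaling, Cers4 was again the 1 member of 9 called, with a log2 change of -0.43 (SE 0.09, adjusted p = 0.0392), where 0.751% of tested genes were called lower. It was also the 1 member whose obese samples all lay below the lean ones, as 5.31% of genes did. The rescaled call did not hold when most single libraries were left out: the adjusted p lay between 0.0523 and 0.0974 without any 1 of the 4 lean or 4 obese samples, or without NAM-treated replicate 2 or 4, while the log2 change stayed between -0.47 and -0.39. On the deposited scale the call held in 12 of 12 such fits and was lost when mitochondrially encoded genes were taken out of the TPM total (log2 change -0.52, adjusted p = 0.0865). The other 8 members had rescaled changes between -0.08 and 0.25, with adjusted p-values of at least 0.326.

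In NAM-treated against untreated obese rats, 5 of the 9 members were called higher as deposited, spanning synthesis, sphingomyelin turnover and breakdown, and none was called lower. Cers4 had a log2 change of 0.87 (SE 0.10, adjusted p = 0.00283 by limma) and ranked 2 by p among the 10526 tested genes. Smpd1 had a change of 0.45 (SE 0.10, adjusted p = 0.00655), Sgms1 of 0.44 (SE 0.15, adjusted p = 0.0457), Asah1 of 0.37 (SE 0.10, adjusted p = 0.0182) and Cers2 of 0.34 (SE 0.09, adjusted p = 0.0191). In these 5 genes all 4 NAM-treated samples lay above all obese ones. On the same scale 28.8% of tested genes were called higher and 28% had groups that did not overlap with NAM-treated higher. The members' median change was 0.34, against 0.25 for all tested genes.

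The calls of Cers4 and Smpd1 held in 12 of 12 fits that left out 1 library. The Asah1 call was lost without obese replicate 1, NAM-treated replicate 1 or NAM-treated replicate 4, with adjusted p-values of 0.0536, 0.0560 and 0.0525, and the Cers2 call without obese replicate 3 or NAM-treated replicate 1, with 0.0566 and 0.0557. The Sgms1 call was lost without lean replicate 3 or 4, without obese replicate 1, 2 or 3, or without NAM-treated replicate 1, 3 or 4, with adjusted p-values of 0.0554 to 0.111.

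After rescaling, Cers4 alone of the 9 members was called higher, with a log2 change of 0.65 (SE 0.09, adjusted p = 0.0122) and rank 7 by p, where 0.2% of tested genes were called higher. The call held in 12 of 12 fits that left out 1 library, with adjusted p-values of 0.0147 to 0.0442, and was lost when the fit held only the 8 samples compared (adjusted p = 0.0503). For 2 members, Cers4 and Smpd1, NAM-treated samples all lay above the obese ones, as 4.87% of tested genes did. For Smpd1 the rescaled change was 0.14 (adjusted p = 0.334), for Sgms1 0.13 (0.691), for Asah1 0.05 (0.813) and for Cers2 0.05 (0.847). The calls of these 4 genes were thus made on the deposited scale and not after rescaling.

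**Figure D3:**
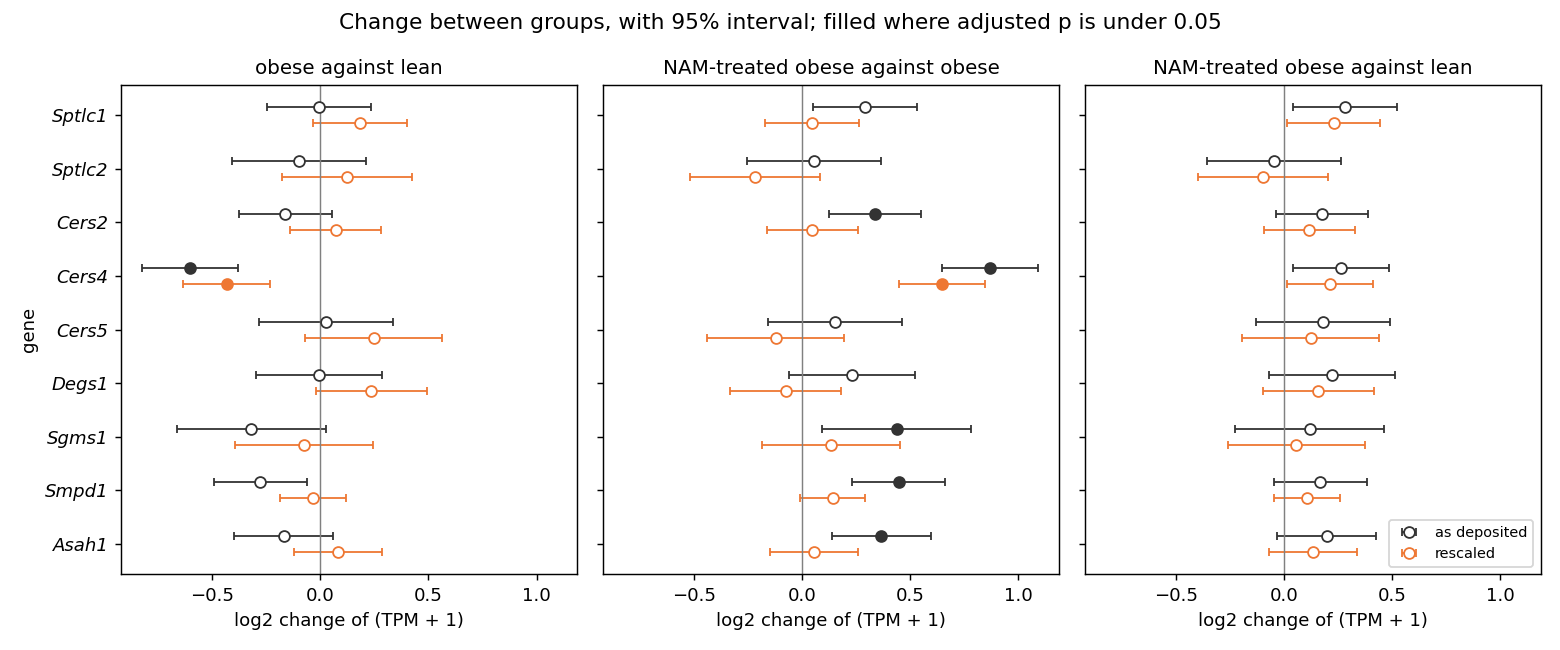
Log2 change of TPM + 1 with its 95% interval for the 9 tested enzymes in 3 comparisons, as deposited (dark) and rescaled (orange); filled points have an adjusted p under 0.05 by limma. Cers4 is filled on both scales in the comparisons with the obese group, at -0.60 and -0.43 against lean and 0.87 and 0.65 with NAM, and no point is filled for NAM-treated against lean rats.

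NAM-treated obese rats were also set against lean rats, a comparison that shares samples with each of the others. None of the 9 members was called by limma on either scale, where 1.83% of tested genes were called in either direction as deposited and 2.36% after rescaling. The 2 members Sptlc1 and Cers4 had an unadjusted p under 0.05 on each scale, as did 17% of all tested genes as deposited and 16.8% after rescaling. For Cers4 the log2 change was 0.27 (95% interval 0.04 to 0.49, adjusted p = 0.197) as deposited and 0.21 (0.01 to 0.41, adjusted p = 0.246) after rescaling. Sptlc1, Cers2 and Cers4 had NAM-treated samples that all lay above the lean ones as deposited, a pattern of 6.94% of tested genes; after rescaling Sptlc1 alone did, as did 5.84% of genes.

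The cardiomyocyte markers moved with Cers4 as deposited in the comparisons with the obese group. Between NAM-treated and lean rats the markers did not move together. The 7 markers summed to between 15854 and 18364 TPM in the lean, 11094 and 12617 in the obese and 13553 and 15181 in NAM-treated samples. All 7 were called lower in obese than in lean rats and 6 of 7 higher with NAM as deposited, and 1 of 7 in each comparison after rescaling. Of all tested genes 16.5% were called lower and 28.8% higher in these comparisons as deposited, and 0.751% and 0.2% after rescaling. In NAM-treated against lean rats 1 of 7 was called lower as deposited and 2 of 7 after rescaling, where 0.969% and 1.59% of all tested genes were. The NAM-treated sums lay below every lean one, whereas Cers4 as deposited lay above every lean sample. These sums were mostly Myl2 and Tnnt2, at 6452 and 5892 TPM in the lean, and do not stand for each marker. In NAM-treated against lean samples as deposited, Actn2, Pln and Ryr2 changed by 0.05, 0.12 and -0.03 (log2). Myl2, Tnnt2, Tnni3 and Myh6 changed by -0.16, -0.18, -0.27 and -0.75. Per 10000 TPM of these markers, Cers4 stood at 1.74 TPM ± 0.141 in the lean, 1.30 ± 0.161 in the obese and 2.52 ± 0.220 in NAM-treated samples (SD, n = 4). The obese range of 1.12 to 1.46 lay below the lean range of 1.61 to 1.94 and the NAM-treated range of 2.28 to 2.81. The same order without overlap was found with 6 markers, leaving out Myh6. Myh6 averaged 791, 227 and 464 TPM in the lean, obese and NAM-treated samples, a small part of the sums, so leaving it out could change little. The ratio of Cers4 to these markers was added after the data had been seen and carries no test. The 5 endothelial markers summed to between 52.8 and 62.3 TPM in the lean, 41.8 and 53.4 in the obese and 52.0 and 65.0 in NAM-treated samples. As deposited, 1 of 5 was called lower in obese rats and 1 of 5 higher with NAM, near or below the 16.5% and 28.8% of all tested genes. The fibroblast markers summed to 351 to 375, 290 to 571 and 307 to 389 TPM and the macrophage markers to 21.2 to 28.4, 12.5 to 49.4 and 24.6 to 30.6 in the same order. The smooth muscle and pericyte markers summed to 151 to 166, 115 to 137 and 116 to 185 TPM. Of these 1 of 4, Rgs5, was called higher with NAM as deposited (adjusted p = 0.0428 by limma), also near the 28.8% of all tested genes. The erythroid markers summed to 4.45 to 8.22, 8.09 to 14.3 and 4.28 to 12.5 TPM, and did not move together. The highest of them, Alas2, averaged 3.41 ± 1.48 TPM in lean and 8.57 ± 2.95 in obese samples without overlap (adjusted p = 0.0592 by limma). Slc4a1 went the other way, at 2.52 ± 0.165 in lean and 1.83 ± 0.367 in obese samples, also without overlap (adjusted p = 0.121). Hemgn averaged 0.13 and 0.42 TPM with overlap and was not tested. After rescaling, the median log2 change of the 6 fibroblast markers was 0.49 between obese and lean and -0.50 between NAM-treated and obese samples. It was 0.26 and -0.19 for the 6 macrophage markers, 0.02 and 0.03 for the 5 endothelial markers, and -0.27 and 0.18 for the 7 cardiomyocyte markers. No fibroblast, macrophage or endothelial marker was called on that scale. The part of these cell types or of atrial RNA in the Cers4 difference was not tested.

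**Figure D4:**
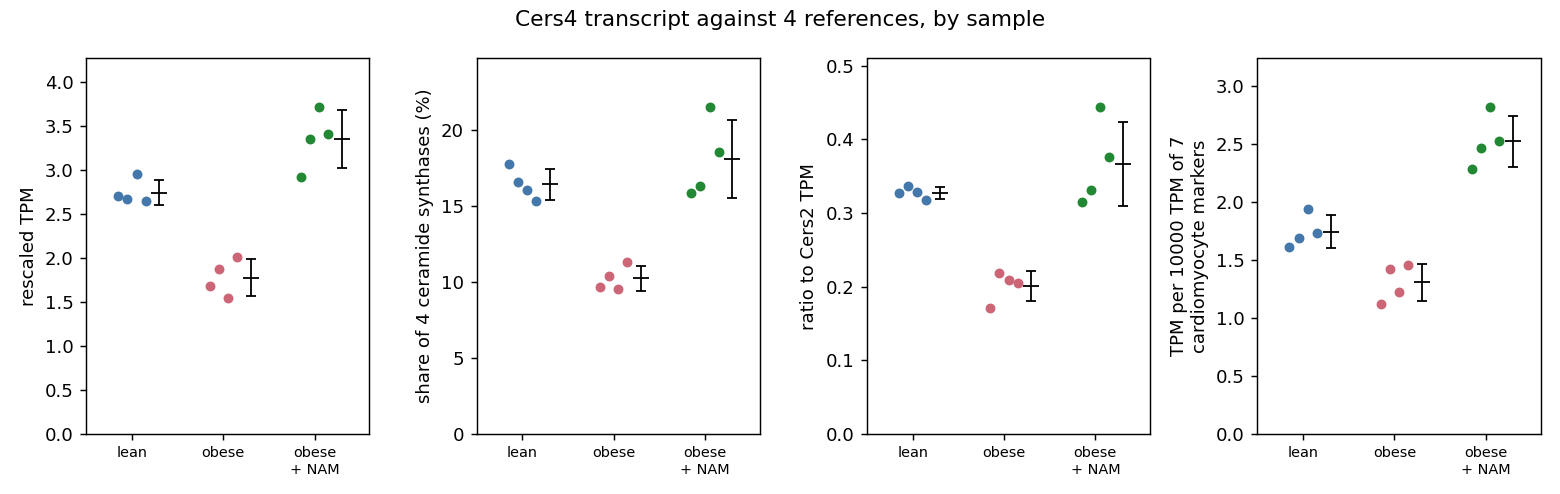
Cers4 in each sample against 4 references: rescaled TPM, its share of 4 ceramide synthases (%), its ratio to Cers2, and TPM per 10000 TPM of 7 cardiomyocyte markers; points are samples and bars the mean and SD (n = 4), with axes from 0. The 4 obese samples lie below all others in each panel, at 1.12 to 1.46 in the last one against at least 1.61 elsewhere.

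The genes with profiles closest to that of Cers4 were sought among 7874 genes of sufficient variation, by the root mean square difference of centred, rescaled log2(TPM + 1) over the 12 samples. They were Asb15, at 0.0883, Ppp1r12b, at 0.127, and Cmya5, at 0.133. Asb15, which encodes a muscle ankyrin repeat protein, averaged 8.55, 5.19 and 11.1 TPM in the lean, obese and NAM-treated rats; Ppp1r12b, a myosin phosphatase subunit, averaged 12.4, 7.43 and 13.0; and Cmya5, a striated muscle protein also called myospryn, averaged 36.1, 22.2 and 41.2. The range of Cers4 group means, 0.65 on the rescaled log2 scale, was wider than that of 93.4% of tested genes. The next widest among the members were Cers5, at 0.25, and Degs1, at 0.24. Closest to Cers5 were Trim34, Lta4h and Emc7, with differences of 0.104 to 0.116, and closest to Degs1 were Lrch3, Ubtd2 and Cyp4b1, with 0.0859 to 0.101.

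Of 65 other listed genes of sphingolipid metabolism, 46 were tested. Between obese and lean rats 2 of the 46 were called lower and none higher as deposited, that is 4.35% lower, against 16.5% of all tested genes. Cert1, the transfer protein that carries ceramide from the endoplasmic reticulum to the Golgi for sphingomyelin synthesis, averaged 6.84 ± 0.146 TPM in lean and 4.75 ± 0.604 in obese rats (log2 change -0.45, adjusted p = 0.0114 by limma). Sphk2, a sphingosine kinase, averaged 2.65 ± 0.242 and 1.63 ± 0.262 (log2 change -0.47, adjusted p = 0.0262). After rescaling neither was called, with adjusted p-values of 0.169 and 0.220, and 1 gene was called higher: Plpp1, a lipid phosphate phosphatase, with a change of 0.50 (adjusted p = 0.0465). That is 2.17% of the 46, against 0.589% of all tested genes. An unadjusted p under 0.05 by limma was reached by 11 of the 46 as deposited and by 15 after rescaling. Of all tested genes 33.8% and 16.7% did so.

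With NAM, 10 of the 46 genes were called higher than in untreated obese rats and none lower as deposited, that is 21.7%, below the 28.8% of all tested genes. The median change of the 46 was 0.21 against 0.25 for all tested genes. In de novo synthesis, 1 of 5 rose, Kdsr, the ketosphinganine reductase, by 0.50 (adjusted p = 0.0408 by limma). In the list of sphingomyelin, glycosphingolipid and ceramide phosphate synthesis and transport 2 of 10 rose: Cert1 by 0.54, from 4.75 to 7.36 TPM (adjusted p = 0.00430), and Ugcg, glucosylceramide synthase, by 0.38 (0.0170). Of the breakdown genes 4 of 17 rose, among them Psap, the precursor of the saposins that activate lysosomal sphingolipid hydrolases, by 0.44, from 92.9 to 126 TPM (0.00762), Acer3, an alkaline ceramidase, by 0.37 (0.0359), and Asah2, the neutral ceramidase, by 0.32 (0.0379), which was added to the named genes after its value was seen. In the sphingosine 1-phosphate list 2 of 9 rose: Sgpl1, the lyase that degrades it, by 0.47 (0.00755), and Sgpp1, a phosphatase acting on it, by 0.42 (0.0148). Among fatty acid elongases and adiponectin receptors 1 of 5 rose, Adipor1, by 0.27 (0.0315). After rescaling none of the 46 was called by limma in this comparison, with 5 at an unadjusted p under 0.05, where 15.7% of all tested genes were; the lowest adjusted p was 0.146, that of Cert1.

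The most abundant genes of these lists were Psap at 110 TPM, St3gal5, the ganglioside GM3 synthase, at 38.5, Adipor1 at 33.1, Plpp3 at 22.4 and Ormdl3, an inhibitor of serine palmitoyltransferase, at 21.5. Ormdl3 averaged 25.3 ± 3.99, 19.4 ± 1.46 and 19.7 ± 4.45 TPM in the lean, obese and NAM-treated rats, with adjusted p-values of 0.0976 and 0.974 for obese against lean and NAM-treated against obese. Against lean rats, the NAM-treated group had no called gene among the 46 on either scale by limma, with 7 and 6 genes at an unadjusted p under 0.05, against 17% and 16.8% of all tested genes, and lowest adjusted p-values of 0.116 and 0.114.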

How the data were processed

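Bulk RNA was sequenced from rat cardiac muscle after directional library preparation, per the labels' protocols. The authors deposited 1 table of TPM per gene for all 12 samples; the build Rnor_6.0 and limma are named in the submitters' processing notes, and neither names an aligner or a counter. In 498 of 17602 genes the NAM-treated columns held no number, and these genes were left out. The other values were used on 2 scales: as they stand, and divided in each sample by the median over genes of the ratio to the gene's geometric mean. A gene was tested if 4 or more samples reached 1 TPM (10526 genes), and these were fitted as log2(TPM + 1) over all 3 groups with limma 3.58.1 and statmod 1.5.0 in R 4.3.3 (trended, robust variance), with Benjamini-Hochberg adjustment over all of them and a threshold of 0.05. Fold changes on this scale understate those of genes with few TPM. Ratios of 6 pairs of members were compared by exact two-sided permutation tests. The fit was tested on simulated data.

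The members, the other sphingolipid genes, the marker lists and the alternatives were chosen with earlier results of these data known. The text names all members, per list and comparison up to 3 called genes of the smallest adjusted p, the most abundant gene of each list, and the 3 genes most like each of the 3 most variable members; 1 gene that this rule names is not reported here. Samples with the same replicate number did not deviate together. No 2 samples were identical. Alternatives were other pseudocounts, filters, variance models, scalings and samples in the fit, and each library left out in turn. Promoter sequences are RefSeq's, GRCr8.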

Additional observations from a re-analysis of the deposited data

Results flagged for a closer look

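Degs1 in NAM-treated replicate 4 stood apart from the rest of its group, at 20.0 TPM against 16.5 to 16.9 in the other 3 samples, by Dixon's criterion. This was 1 of 30 groups examined (10 members in 3 groups), and chance alone puts about 1 in 20 groups past that limit. Degs1 passed the threshold in none of the 3 comparisons.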

How the results depend on the processing

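The counts of called genes, against which the members were read, moved with the scaling in both deposited comparisons with the obese group, and with the samples in the fit after rescaling. As deposited, the 1770 genes called between obese and lean rats became 62 without mitochondrially encoded genes in the total, 98 after quantile normalization and 141 after median-of-ratios rescaling; the 3077 called between NAM-treated and obese rats became 208, 68 and 75; and the 193 called between NAM-treated and lean rats became 569 without mitochondrial genes and 124 without a filter. After rescaling, the 141 genes of obese against lean rats became 76 without a filter, 85 without trended and robust variance and 43 with the 8 samples compared; the 75 of NAM-treated against obese rats became 31, 16 and 7, and 29 with the replicate number as a block; and the 248 of NAM-treated against lean rats became 146 without a filter. Leaving out 1 library gave, in the same order of comparisons, 1006 to 1966, 1867 to 3640 and 69 to 188 genes as deposited, and 27 to 224, 10 to 156 and 105 to 291 after rescaling.

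Same-numbered samples correlated in their deviations from the group means at -0.05 to 0.07 and other pairs at -0.09 to 0.08, and 4 of 12 samples correlated best with their own number, so the numbers were not taken to pair the samples. With the replicate number as a block, the rescaled Cers4 call between obese and lean rats was lost (adjusted p = 0.0701), as was the deposited Sgms1 call with NAM (0.0602). For the 9 tested members, 1030 of the refitted values kept their direction and their side of the threshold, 43 lost a call, 5 gained one, and 44 changed sign with no call on either side; no called change turned its sign. The rescaled Cers4 call between obese and lean rats was also lost without a filter (0.0590) and with the 8 samples compared (0.0950). The deposited Sgms1 call was also lost without a filter (0.0789) and without trended and robust variance (0.0549), where the Sptlc1 change with NAM gained one (0.0447). Smpd1 gained a call between obese and lean rats with a mean of at least 5 TPM (0.0412) or with the 8 samples compared (0.0480). The causes were not tested. Of 234 refitted ratio differences 232 moved by less than the spread between replicates; the other 2 were those of Cers4 to Cers2 with 1 TPM added, at -0.44 for obese against lean and 0.53 for NAM-treated against obese rats. Read depth, and so the counting error of low genes, is unknown.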
